A study of Mus musculus with 24 samples.

Results

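The 9 transcription factor genes Emx1, Emx2, Otx1, Otx2, En1, En2, Irx2, Six3 and Zic1 mark regions of the forebrain, midbrain and isthmus. The stem cell line studied here came from no brain region, and most of the 9 genes changed with culture in primary cells. In cultured and directly isolated astrocytes the 9 genes were therefore followed only as possible traces of a brain region. They were taken by name, through their Ensembl identifiers, from a count matrix of 49671 genes, and all 9 were found. All 9 were among the 19691 genes kept by the filter on low counts. Emx1 and Otx2 are at or near 0 in the stem cell line, however, and were kept through the primary astrocytes, whose libraries all held them. For both genes, a test of the line against primary cells could therefore hardly fail.

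RNA-seq libraries came from 6 groups of 4 biological replicates each. NSC and AGES came from 1 embryonic stem cell line, GSC-5003, of C57Bl/6 N origin. NSC are neural stem cells of that line at passages 50 to 60, kept in EGF and FGF at 20 ng/ml each, and AGES are astrocytes generated from these NSC with 20 ng/ml BMP4, for 3 days by the methods and for 3 to 5 days by the study's general account. The primary cells were isolated from C57BL/6J mice with magnetic beads against the astrocyte surface antigen ACSA-2, from 4 to 8 days old pups (neoAC) or from 100 to 140 days old adults (AdAC), with 2 mice of either sex pooled per isolation. Primary cells were frozen at once (direct) or grown for 7 to 10 days in a serum-free astrocyte medium of the same composition at both ages (CellC). According to the methods, the neonatal tissue was cerebral and freed of meninges, and olfactory bulb and cerebellum were taken off before direct isolation of adult cells. Whether they were also taken off for the adult cultures is not stated. Pups and adults were dissociated with different kits, and debris and red blood cells were removed for adults only. Age thus cannot be told apart from dissection and kit. Replicates of NSC and AGES are cultures from different passages of the 1 line, so their spread is that between cultures and not between lines or animals.

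The neural tube is divided into forebrain, midbrain and hindbrain by transcription factors whose domains meet at sharp boundaries, and astrocytes keep part of the code of the domain in which their precursors arose. Emx1 and Emx2 are homeobox genes of the dorsal telencephalon, the source of the cerebral cortex and hippocampus. Otx1 and Otx2 are expressed in forebrain and midbrain, and the posterior limit of Otx2 sets the boundary between midbrain and hindbrain, while Otx2 also stays on in the choroid plexus. Six3 is needed for the most anterior forebrain. En1 and En2 mark the midbrain, the isthmus and the cerebellum, Irx2 belongs to the Iroquois genes of diencephalon, midbrain and hindbrain, and Zic1 is a zinc finger gene of the dorsal neural tube and of the cerebellum.

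Of the 9 genes, 8 hold a homeobox. A stretch of 45 bases around its codon 50 is given here because it shows how near the paralogs are to each other, and hence whether reads could pass from one to the other. Capitals mark codon 50 of the homeodomain, which is known to govern the choice of bases beside the core of the binding site. The sequences are coding strand, 5′ to 3′, from Gencode vM21 transcripts on GRCm38. They lie at chr6:85194217-85203947 (Emx1, plus strand, across the intron between exons 2 and 3), chr19:59461841-59463918 (Emx2, plus, exons 2 and 3), chr11:21997026-21998381 (Otx1, minus, exons 4 and 5), chr14:48659294-48661310 (Otx2, minus, exons 4 and 5), chr1:120607043-120607087 (En1, plus, exon 2), chr5:28170289-28170333 (En2, plus, exon 2), chr13:72630796-72630840 (Irx2, plus, exon 2) and chr17:85621984-85622028 (Six3, plus, exon 1).
Emx1: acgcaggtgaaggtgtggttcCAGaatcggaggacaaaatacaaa
Emx2: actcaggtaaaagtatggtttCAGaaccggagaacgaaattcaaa
Otx1: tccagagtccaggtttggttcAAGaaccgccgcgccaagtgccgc
Otx2: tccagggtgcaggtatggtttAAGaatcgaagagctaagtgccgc
En1: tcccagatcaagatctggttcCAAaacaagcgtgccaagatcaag
En2: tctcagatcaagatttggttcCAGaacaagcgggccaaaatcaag
Irx2: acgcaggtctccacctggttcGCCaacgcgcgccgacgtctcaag
Six3: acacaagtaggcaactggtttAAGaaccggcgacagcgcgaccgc
Codon 50 was the same triplet in Emx1, Emx2 and En2, and another shared triplet in Otx1, Otx2 and Six3. The triplet of En1, CAA, codes for the same amino acid as that of En2. Within this stretch Emx1 and Emx2 shared 80.0% of the bases, Otx1 and Otx2 80.0%, and En1 and En2 88.9%, whereas Otx2 and Irx2 shared 28.9%. Over whole transcripts, the longest run of identical bases was 14 for Emx1 and Emx2, 18 for Otx1 and Otx2, and 17 for En1 and En2, all far below the read length of 100. It was 35 for Zic1 and Zic2, and 65 for Irx2 and its neighbor in the family, Irx5. On the opposite strand, exons of Emx2 share 264 bases with Emx2os (8.79% of the exon length of Emx2), those of Otx2 share 154 with Otx2os1 (3.65%), those of Six3 share 106 with Six3os1 (1.95%) and 168 with Gm28528 (3.08%), and those of Zic1 share 60 with Zic4 (1.05%). Whether strand was used in counting is not stated, so reads from these stretches cannot be told apart.

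Library totals lay between 27904126 and 37997368 counts (median 32239904). Levels are CPM, counts over the TMM-scaled library size, with mean ± SD over 4 libraries, and 3 counts summed over a group correspond to 0.0211 to 0.0247 CPM, which covers counting error alone. The astrocyte markers Slc1a3, Slc1a2, Aqp4, Aldh1l1, Gja1, Atp1b2, Gfap and Aldoc summed to between 54864 and 59590 CPM in AGES, 21121 to 24107 in neoAC direct, 15736 to 16453 in AdAC direct, 7324 to 8512 in neoAC CellC, 1902 to 2441 in NSC and 869 to 1350 in AdAC CellC. Gfap made up 88.1 to 89.3% of the sum in AGES, and without it AGES came after both directly isolated groups, with 5995 to 6654 CPM against 19574 to 22357 in neoAC direct and 15574 to 16282 in AdAC direct. Of these 8 markers, Aldh1l1 and Gja1 were lower in all 8 NSC and AGES libraries than in any of the 16 primary libraries, and none of the 8 was at 0 in any group. All groups are bulk RNA, in which fewer cells of a type and less RNA per cell cannot be told apart.

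The stem cell line and the primary astrocytes carried different sets of these factors. Over the NSC and AGES libraries, Emx1, Emx2, Otx1, Otx2 and Six3 were each lower than in any of the 16 primary libraries, and En1, En2 and Irx2 were each higher than in any of them, so that 8 of the 9 genes did not overlap. Among all genes tested, 19.3% did not overlap in either direction, 14.2% with the line lower and 5.10% with the line higher. Emx1 and Otx2, kept by the filter through the primary cells, could hardly overlap, so for them this count was fixed in advance. The 9 genes were also chosen with earlier results of these data known. Zic1 was the exception and overlapped, with 44.0 to 89.9 CPM in the line against 29.0 to 82.5 CPM in primary cells.

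**Figure D1:**
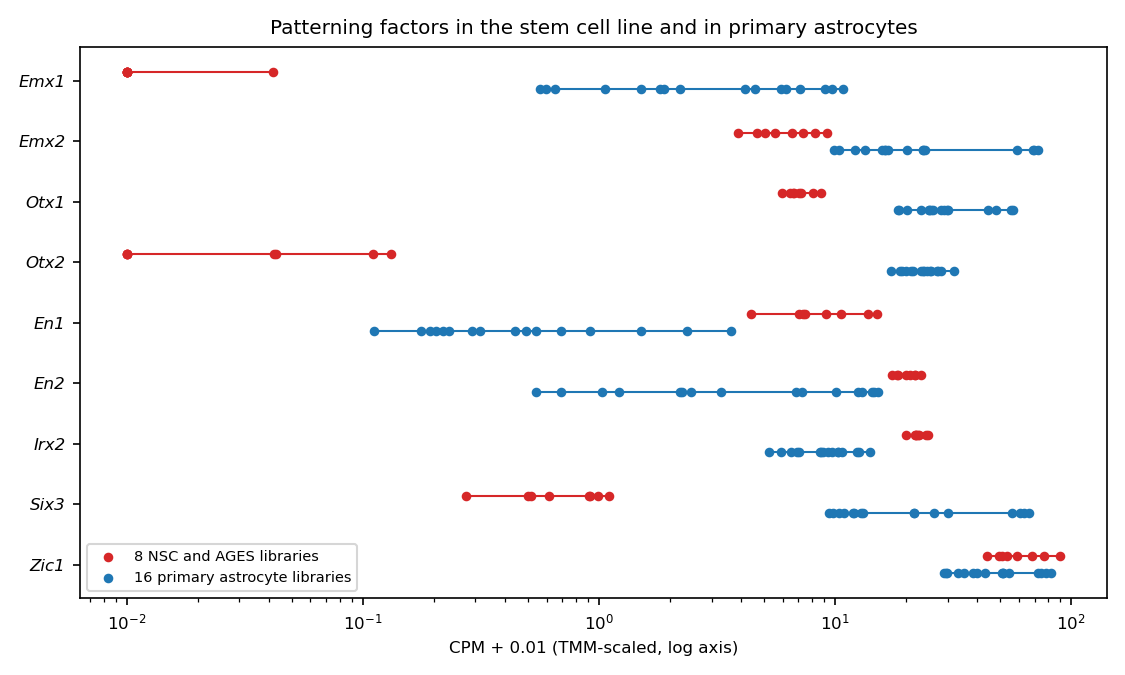
Level of each of the 9 genes in every library (x axis, CPM + 0.01, TMM-scaled, log axis), with the 8 NSC and AGES libraries in red and the 16 primary astrocyte libraries in blue; lines join the lowest and the highest library. The red and blue ranges are apart for 8 genes, with red to the left for Emx1, Emx2, Otx1, Otx2 and Six3 and to the right for En1, En2 and Irx2, and overlap for Zic1.

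Emx1 was nearly absent from the line. AGES held 0 counts in all 4 libraries and NSC held 1 count, in 1 library of 4. The neoAC CellC libraries held 147, 225, 257 and 150 counts (5.44 ± 1.34 CPM) and the 4 AdAC CellC libraries held 21, 19, 22 and 34 (0.709 ± 0.233 CPM). Every primary library thus lay above every library of the line. Against the floor of 3 counts over the 4 AGES libraries, Emx1 was at least 222-fold lower in AGES than in neoAC CellC and at least 28.5-fold lower than in AdAC CellC (edgeR adjusted p = 7.85e-14 and 5.52e-09).

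Emx2, its paralog, was not lost to the same extent. AGES had 4.64, 3.86, 5.54 and 5.04 CPM and NSC had 8.22, 6.56, 7.29 and 9.23 CPM, while the 4 neoAC CellC libraries lay between 15.8 and 16.7 CPM and the 4 AdAC CellC libraries between 9.88 and 13.4 CPM. Emx2 was 3.41-fold lower in AGES than in neoAC CellC (edgeR adjusted p = 1.03e-12) and 2.40-fold lower than in AdAC CellC (adjusted p = 7.17e-10). Every library of the line thus held Emx2 and at most 1 count of Emx1, whereas every primary library held both. The overlapping antisense transcript Emx2os was at 4.02 ± 0.744 CPM in NSC and 5.37 ± 0.551 CPM in AGES, within the range of the primary groups. In these comparisons it went the opposite way to Emx2, without overlap. Emx2os was 2.19-fold higher in AGES than in neoAC CellC (edgeR adjusted p = 5.85e-07) and 3.12-fold higher than in AdAC CellC (adjusted p = 1.56e-09). It was also 1.34-fold higher in AGES than in NSC (adjusted p = 0.0194).

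Otx2 was near the floor in the line as well. NSC held 0, 4, 0 and 3 counts and AGES held 0, 0, 1 and 1. The primary libraries lay between 17.2 and 32.0 CPM, neoAC CellC at 24.6 ± 3.92 and AdAC CellC at 27.3 ± 3.60 CPM. All 8 libraries of the line were therefore far below all 16 primary libraries. With 2 counts in AGES, the ratio was 1510 in favor of neoAC CellC (95% counting interval 418 to 12477) and 1655 in favor of AdAC CellC (458 to 13672), and edgeR adjusted p were 2.83e-19 and 2.28e-19.

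Otx1, which shares the forebrain and midbrain domain of Otx2, stayed on in the line at a lower level. It lay between 5.93 and 8.67 CPM over NSC and AGES and between 18.4 and 56.6 CPM over the primary libraries. AGES was 3.69-fold lower than neoAC CellC (edgeR adjusted p = 6.38e-14) and 2.69-fold lower than AdAC CellC (adjusted p = 1.53e-11). In both Emx and Otx, then, 1 paralog was at or near the floor in the line and the other was lower but present.

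Otx2 is also a gene of the choroid plexus, and markers of that tissue followed the same split. The sum of Ttr, Kl, Folr1, Clic6, Kcnj13, Aqp1 and Kcne2 was 2.09 to 3.75 CPM in NSC, 8.76 to 13.2 in AGES, 458 to 1386 in neoAC CellC, 594 to 1255 in neoAC direct, 269 to 449 in AdAC CellC and 114 to 327 in AdAC direct. Of these 7 markers, 5 (Ttr, Kl, Clic6, Kcnj13 and Aqp1) were lower in every library of the line than in any primary library, and none was at 0 in all 4 libraries of any group, although 3 (Kl, Kcnj13 and Kcne2) held at most 3 counts over NSC. The split was not particular to this tissue. It also held for 5 of 6 ependymal markers (not for Mia) and for 4 of 6 fibroblast and meningeal markers (Col1a1, Col1a2, Dcn and Lum). Among the primary groups, the choroid plexus sum was lower in every AdAC direct library than in any neoAC direct library. Otx2 was at 22.7 CPM in AdAC direct and 19.7 CPM in neoAC direct, which did not pass (edgeR adjusted p = 0.22). The part of choroid plexus cells in the level of Otx2 was not tested.

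Six3, the anterior forebrain factor, was at 0.978, 1.09, 0.605 and 0.903 CPM in NSC and 0.507, 0.493, 0.897 and 0.263 CPM in AGES. The same gene reached 30.2, 21.6, 21.7 and 26.1 CPM in neoAC CellC, and 60.4, 56.3, 62.9 and 66.2 CPM once adult cells were cultured (AdAC CellC). The groups were far apart. Six3 was 45.6-fold lower in AGES than in neoAC CellC (edgeR adjusted p = 3.76e-18) and 113-fold lower than in AdAC CellC (adjusted p = 8.24e-20). Its divergent neighbor Six3os1 showed the same split, with 1.14 to 2.50 CPM over the line and 25.4 to 95.2 CPM over the primary libraries, and so did Otx2os1, at a low level, with 0 to 0.0987 CPM and 0.208 to 1.14 CPM.

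En1 went the other way. NSC had 7.04, 4.402, 7.42 and 7.32 CPM and AGES had 10.6, 15.1, 13.8 and 9.18 CPM. In neoAC CellC the libraries held only 9, 7, 7 and 11 counts (0.241 ± 0.0610 CPM), and in AdAC CellC they were at 1.504, 2.36, 0.903 and 3.63 CPM. Every AGES library was above every library of both, 50.1-fold on average above neoAC CellC (edgeR adjusted p = 7.94e-12) and 5.82-fold above AdAC CellC (adjusted p = 1.70e-07).

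En2 was at 21.9, 21.8, 20.8 and 23.2 CPM in NSC and 17.5, 18.4, 19.96 and 18.4 CPM in AGES. In neoAC CellC it was at 2.18, 2.44, 3.27 and 2.24 CPM and in AdAC CellC at 6.81, 10.1, 7.25 and 12.5 CPM. Every AGES library was above every cultured primary library, by 7.30-fold on average against neoAC CellC (edgeR adjusted p = 2.12e-13) and 2.03-fold against AdAC CellC (adjusted p = 4.50e-06). AdAC direct was nearer, at 14.3 ± 0.889 CPM against 18.5 ± 1.03 CPM in AGES, still without overlap (adjusted p = 0.0363). Irx2 lay between 19.9 and 24.8 CPM over NSC and AGES and between 5.22 and 14.04 CPM over the primary libraries. It was 2.22-fold higher in AGES than in neoAC CellC (adjusted p = 9.90e-09) and 3.64-fold higher than in AdAC CellC (adjusted p = 1.69e-12).

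Zic1 was higher in AGES as well, although the line and the primary cells overlapped as wholes. It was at 76.5, 89.9, 68.3 and 59.0 CPM in AGES, against 29.0, 29.7, 29.5 and 33.2 CPM for neoAC CellC and 51.5, 54.5, 50.8 and 51.5 CPM for AdAC CellC. The AGES libraries lay above all cultured primary libraries, by 2.42-fold against neoAC CellC (edgeR adjusted p = 9.35e-12) and 1.41-fold against AdAC CellC (adjusted p = 4.71e-05). Its paralogs did not share 1 pattern: Zic4 was at 2.88 to 9.34 CPM in the line against 14.3 to 32.6 CPM in primary libraries, whereas Zic2 and Zic5 overlapped.

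Counted by comparison, all 9 genes passed the edgeR test in AGES against neoAC CellC, 4 higher (En1, En2, Irx2 and Zic1) and 5 lower (Emx1, Emx2, Otx1, Otx2 and Six3). Of all genes tested, 74.6% passed, 34.1% higher and 40.5% lower. Against AdAC CellC the same 9 genes passed in the same directions, where 76.2% of all genes passed, 31.0% higher and 45.2% lower. The median gene had a log2 fold change of -0.23 there, so the 1.41-fold of Zic1 corresponds to a larger step against the median gene and the 2.40-fold of Emx2 to a smaller one. The 2 comparisons share the AGES libraries. Emx1 and Otx2, kept by the filter through the primary cells, could hardly fail in either.

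The start regions of 4 genes are given because Emx1, Otx2 and Six3 had the lowest levels of the 9 genes in the line and En1 was among those higher there. RefSeq windows on GRCm38.p6, from 250 bases before to 50 bases after the start, were found for 7 of the 9 genes, and not for En2 and Otx1. The motifs searched on both strands were TAATTA, the core of many homeodomain sites, and TAATCC, the core bound by Otx proteins. Capitals mark a match, and each sequence runs 5′ to 3′ in the direction of transcription. The windows are chr6:85187681-85187980 (Emx1, plus strand), chr14:48665060-48665359 (Otx2, minus strand, the window of its 4 with the most matches), chr17:85620584-85620883 (Six3, plus strand) and chr1:120602237-120602536 (En1, plus strand).
Emx1: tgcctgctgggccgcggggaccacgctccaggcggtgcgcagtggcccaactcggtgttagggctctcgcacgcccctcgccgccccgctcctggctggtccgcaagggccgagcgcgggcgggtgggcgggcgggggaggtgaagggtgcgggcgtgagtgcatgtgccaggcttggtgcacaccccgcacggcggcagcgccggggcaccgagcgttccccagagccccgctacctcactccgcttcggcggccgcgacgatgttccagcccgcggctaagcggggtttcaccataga
Otx2: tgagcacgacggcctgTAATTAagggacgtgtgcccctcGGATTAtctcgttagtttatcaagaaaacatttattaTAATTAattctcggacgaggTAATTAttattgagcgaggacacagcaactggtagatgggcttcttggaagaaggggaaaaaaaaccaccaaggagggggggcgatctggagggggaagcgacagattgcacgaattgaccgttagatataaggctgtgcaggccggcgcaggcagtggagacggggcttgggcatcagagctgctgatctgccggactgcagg
Six3: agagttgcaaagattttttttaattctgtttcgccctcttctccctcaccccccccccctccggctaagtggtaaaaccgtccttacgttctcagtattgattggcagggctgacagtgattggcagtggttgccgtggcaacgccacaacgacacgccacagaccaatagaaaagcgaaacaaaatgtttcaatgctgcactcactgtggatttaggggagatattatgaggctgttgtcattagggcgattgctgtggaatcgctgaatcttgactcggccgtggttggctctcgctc
En1: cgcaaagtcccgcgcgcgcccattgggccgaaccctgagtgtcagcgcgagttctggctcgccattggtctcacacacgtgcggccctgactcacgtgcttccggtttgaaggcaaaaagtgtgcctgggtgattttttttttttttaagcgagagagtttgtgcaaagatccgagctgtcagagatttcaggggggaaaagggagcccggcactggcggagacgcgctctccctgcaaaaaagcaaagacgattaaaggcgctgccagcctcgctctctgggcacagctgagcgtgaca
The Otx2 window held 3 matches to TAATTA and 1 to TAATCC, which do not overlap each other, and the windows of Emx1, Six3 and En1 held none. Of all 32817 windows, 5.30% held TAATTA and 7.06% held TAATCC. The windows differed in CpG number: Emx1 held 37, a count reached by 5.59% of all windows, En1 held 23 (21.5%), Otx2 16 (33.0%) and Six3 14 (36.3%), against a median of 7. As the Otx2 window was chosen for its matches, its difference in motifs from Emx1 and Six3 follows from that choice. Of the other Otx2 windows, 1 held 1 match to TAATTA and 6 CpG. The rest held neither motif, with 8 and 11 CpG.

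Among other regional genes, most overlapped between the line and the primary cells. Those that did not came from every list, and the largest number was that of 6 Hox genes, higher in the line. Of 11 genes of the dorsal telencephalon, 4 were lower in every library of the line than in any primary library (Lhx2, Dmrt3, Sp8 and Eomes) and none was higher. Lhx2, needed for cortical identity, was at 10.2 to 25.8 CPM over NSC and AGES and at 47.4 to 275 CPM over the primary libraries. Of 11 genes of the ventral telencephalon, Nkx2-1 and Gsx2 were lower and none was higher. These counts stand beside the 14.2% of all genes with the line lower and the 5.10% with the line higher.

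Of 9 diencephalic genes, 3 were lower in the line (Barhl2, Foxd1 and Wnt8b) and Gbx2 was higher. Exons of Gbx2 overlap an antisense transcript over 43.45% of their length. Of 12 genes of midbrain and isthmus, Pax7, a dorsal midbrain factor, was higher (8.18 to 34.8 CPM against 0.130 to 0.997 CPM), Pax3 was lower and 10 overlapped. Of 11 hindbrain genes, 6 Hox genes were higher in the line (Hoxa2, Hoxa3, Hoxb2, Hoxb3, Hoxb4 and, below 1 CPM, Hoxd4) and none was lower. The low-count filter kept 7 of the 11, and Hoxd4 was not among them. The other Hox genes named are at or near 0 in primary cells, so they were kept through the line and could hardly overlap. Exons of Hoxb3 and Hoxb2 overlap the antisense transcript Hoxb3os over 52.93% and 27.32% of their length. Hoxa2, which has the most anterior expression limit of the Hox genes in the hindbrain, was at 17.03 to 42.2 CPM in the line and at 0 to 0.0618 CPM in the primary libraries. Of 6 genes of cerebellar granule cells, Cbln3 was higher and Barhl1 lower, both at low levels. The 8 libraries with high En1, En2 and Irx2 were thus those with Hox genes and with little or no Emx1, Otx2 and Six3.

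**Figure D2:**
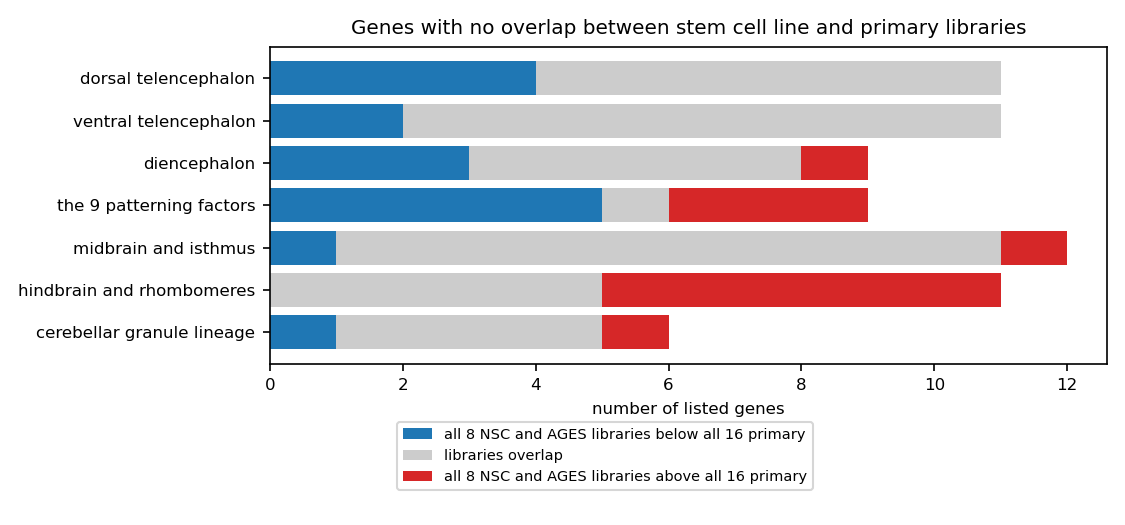
Number of listed genes per brain region (x axis) for which all 8 NSC and AGES libraries were below (blue) or above (red) all 16 primary astrocyte libraries, with overlapping genes in gray. Blue takes 4 of 11 dorsal telencephalic genes and none of 11 hindbrain genes, and red takes 6 of 11 hindbrain genes and none of the telencephalic ones. Listed genes that the low-count filter removed are included.

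Differentiation of NSC to AGES went with changes in some of these factors. En1 and Zic1 were higher in AGES and Emx2 and Six3 lower, 4 of 9 genes, while 65.7% of all genes passed, 31.7% higher and 34.0% lower. En1 rose 1.86-fold (log2 0.90 ± 0.31 SE, edgeR adjusted p = 0.0127) and Zic1 rose 1.49-fold (log2 0.57 ± 0.10, adjusted p = 9.3e-06), each without overlap between the groups. Emx2 fell 1.64-fold without overlap (adjusted p = 1.34e-05), and Six3 fell 1.65-fold with overlapping libraries and 8 to 36 counts per library (adjusted p = 0.0191). The call of Six3 was lost without replicate 1 (adjusted p = 0.0884), 2 (0.147) or 4 (0.132) of each group, and that of En1 without replicate 2 (0.148).

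Otx1 (6.69 ± 0.559 CPM in NSC, 7.47 ± 1.08 in AGES), En2 and Irx2 did not pass between NSC and AGES. Otx2 had 7 counts in NSC and 2 in AGES, a ratio of 3.41 with a counting interval from 0.649 to 33.6, and Emx1 had 1 and 0, so neither difference was detectable at this depth. Emx1, Otx2 and Six3 were thus low before and after BMP4. Of the paralogs of Zic1, which rose, Zic2 rose 3.06-fold, Zic4 2.46-fold and Zic5 2.34-fold. Of those of Six3, which fell, Six4 rose 2.03-fold and Six2, Six5 and Six6 did not pass (edgeR adjusted p at most 8.8e-06 for the 4 that rose). In total 6 of the 11 paralogs tested were higher and none was lower, against 31.7% and 34.0% of all genes.

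Among the primary groups, levels differed with culture and between the ages, which also differ in dissection and kit. Emx1 was highest in neoAC direct (9.72, 9.08, 10.8 and 6.19 CPM), followed by neoAC CellC (4.59, 5.90, 7.12 and 4.16 CPM), AdAC direct (1.49, 2.19, 1.87 and 1.81 CPM) and AdAC CellC (0.645, 0.554, 0.584 and 1.05 CPM). Each neighbor in this order differed from the next by the edgeR test, and only the 2 neonatal groups overlapped. Emx1 was 4.85-fold higher in neonatal than adult cells when directly isolated and 7.68-fold higher in culture (adjusted p = 1.07e-08 and 1.16e-09).

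Emx2 was likewise highest in neoAC direct, at 69.4, 59.2, 72.6 and 68.6 CPM. AdAC direct had 24.1, 23.6, 23.5 and 20.3 CPM, neoAC CellC 16.3, 15.8, 16.7 and 16.2 CPM and AdAC CellC 9.88, 13.4, 10.4 and 12.2 CPM. None of the 4 groups overlapped. Culture went with a 4.15-fold lower level of Emx2 in neonatal cells (edgeR adjusted p = 4.47e-14) and a 2.00-fold lower level in adult cells (adjusted p = 1.44e-08), and the difference between these changes passed as well (log2 -1.05 ± 0.16, adjusted p = 2.1e-06). Emx2os fell in culture too, 6.00-fold in neonatal and 5.04-fold in adult cells.

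Otx1 had the order neoAC direct (51.3 ± 5.90 CPM), neoAC CellC (27.6 ± 2.69), AdAC direct (27.0 ± 1.89) and AdAC CellC (20.1 ± 2.14), in which the middle pair did not pass (edgeR adjusted p = 0.809, where 74.0% of all genes passed). Otx2 was the steadiest of the 9 genes among primary cells: from 27.3 ± 3.60 CPM in AdAC CellC and 24.6 ± 3.92 in neoAC CellC to 22.7 ± 1.97 in AdAC direct and 19.7 ± 1.89 in neoAC direct, no neighbors passed the test. It did not pass with culture at either age (adjusted p = 0.0623 and 0.113) or with age in either condition (0.405 and 0.22). With scaling by library size alone, however, it passed with culture at both ages, at 0.55 (adjusted p = 0.00264) and 0.34 (0.0445) on the log2 scale. It also passed in neonatal culture by DESeq2 (adjusted p = 0.0203) and without replicate 1 (0.0228), and in adult culture when those 2 groups were fitted alone (0.0164).

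Six3 and En1 were raised in cultured adult cells. Six3 was at 10.9, 12.02, 10.4 and 9.39 CPM in AdAC direct and at 60.4, 56.3, 62.9 and 66.2 CPM in AdAC CellC, a 5.77-fold difference without overlap (edgeR adjusted p = 9.29e-14). In neonatal cells it went from 12.9, 13.2, 11.9 and 9.78 CPM to 30.2, 21.6, 21.7 and 26.1 CPM, a 2.08-fold difference (adjusted p = 7.69e-07). The rise was larger in adult cells (difference of log2 changes -1.47 ± 0.21, neonatal minus adult, adjusted p = 9.19e-07). Between directly isolated cells of both ages Six3 did not pass (adjusted p = 0.333).

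En1 rested on few counts in directly isolated cells, with 15, 14, 7 and 17 counts in AdAC direct and 21, 8, 3 and 5 in neoAC direct. In AdAC CellC it had 49, 81, 34 and 117 counts. The level was 5.05-fold higher in AdAC CellC than in AdAC direct without overlap (edgeR adjusted p = 1.41e-05), and 8.60-fold higher than in neoAC CellC (adjusted p = 1.08e-06). No change with culture was called in neonatal cells (0.241 ± 0.0610 against 0.293 ± 0.264 CPM), and the changes differed between ages (log2 -2.63 ± 0.71, adjusted p = 0.00212).

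En2 differed more between the ages, and thus between their dissections and kits, than with culture. It was at 1.20, 1.02, 0.679 and 0.532 CPM in neoAC direct and at 13.1, 14.6, 15.2 and 14.3 CPM in AdAC direct, 16.4-fold apart (edgeR adjusted p = 5.98e-15). In culture the ages were 3.60-fold apart (adjusted p = 2.22e-09). Culture moved En2 up 2.92-fold in neonatal cells (adjusted p = 8.77e-07) and down 1.56-fold in adult cells (adjusted p = 0.00108), so its changes were opposite in sign, with a difference of log2 2.19 ± 0.27 (adjusted p = 1.26e-07). Despite their shared domain, En1 and En2 thus went in different directions when adult cells were cultured.

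Markers of other cells moved along these contrasts. The oligodendrocyte markers Mbp, Mog, Mag, Mobp and Sox10 summed to 9046 to 9865 CPM in AdAC direct, 2625 to 6673 in AdAC CellC, 22.8 to 93.3 in neoAC CellC, 14.9 to 23.8 in neoAC direct and at most 11.7 in the line, none of the 5 at 0 in all libraries of a group, an order of medians that En2 shared among the primary groups. The fibroblast and meningeal markers Col1a1, Col1a2, Dcn, Lum, Foxc1 and Slc6a13 summed to 1006 to 1437 CPM in AdAC CellC, 310 to 500 in neoAC CellC, 161 to 254 in neoAC direct, 82.9 to 99.0 in AdAC direct, 28.7 to 43.8 in NSC and 8.38 to 19.1 in AGES, where Lum was at 0. Means of Six3 had the same order among the primary groups, but the directly isolated pair did not pass (edgeR adjusted p = 0.333). Col1a1, Col1a2 and Foxc1 each had this order of means. Dcn and Lum were highest in neoAC CellC, at 16.97 and 12.8 CPM, against 10.5 and 2.45 CPM in AdAC CellC. Slc6a13 was lowest in AdAC CellC, at 0.389 CPM, and highest in neoAC direct, at 13.4 CPM. In neoAC direct, replicate 2 held 239 CPM of endothelial and 44.3 CPM of microglial markers, above the other 3 libraries. The part of these cells in the levels was not tested, and without that replicate no call of the 9 genes was lost.

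Zic1 also changed in opposite directions with culture. It was at 72.3, 82.5, 77.9 and 74.2 CPM in neoAC direct and 29.0, 29.7, 29.5 and 33.2 CPM in neoAC CellC, a 2.53-fold fall (edgeR adjusted p = 8.07e-12). In adult cells it went from 35.2, 43.3, 39.9 and 38.3 CPM to 51.5, 54.5, 50.8 and 51.5 CPM, a 1.33-fold rise (adjusted p = 0.000426). The groups did not overlap in either case, and the difference of log2 changes was -1.75 ± 0.14 (adjusted p = 2.91e-11). Zic2 and Zic5, its paralogs on another chromosome, showed the same opposite signs, with 2.01-fold and 2.29-fold falls in neonatal and 1.66-fold and 1.99-fold rises in adult cells. Zic4, which lies beside Zic1, fell at both ages, 1.43-fold in neonatal (edgeR adjusted p = 0.000159) and 1.27-fold in adult cells (adjusted p = 0.00495).

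Irx2 spanned a narrow range among the primary groups. It was at 11.9 ± 2.31 CPM in neoAC direct, 10.02 ± 0.777 in neoAC CellC, 8.71 ± 1.19 in AdAC direct and 6.11 ± 0.728 in AdAC CellC, and of the neighbors in this order only the last pair passed (edgeR adjusted p = 0.00109). It was 1.64-fold higher in neonatal than adult cells in culture (adjusted p = 3.81e-05) and 1.37-fold higher when directly isolated, with overlap (adjusted p = 0.00276). The latter call was lost without replicate 3 (adjusted p = 0.0589).

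In counts, culture of neonatal cells changed 6 of the 9 genes, 2 higher (En2 and Six3) and 4 lower (Emx1, Emx2, Otx1 and Zic1), with 65.7% of all genes passing, 34.4% higher and 31.3% lower. Culture of adult cells changed 8, 3 higher (En1, Six3 and Zic1) and 5 lower (Emx1, Emx2, Otx1, En2 and Irx2), with 78.0% passing, 38.8% higher and 39.2% lower. Neonatal against adult cells differed in 8 genes in culture (Emx1, Emx2, Otx1 and Irx2 higher, En1, En2, Six3 and Zic1 lower, against 63.8% of all genes, 28.5% higher and 35.2% lower) and in 6 when directly isolated (Emx1, Emx2, Otx1, Irx2 and Zic1 higher, En2 lower, against 71.4% of all genes, 35.0% higher and 36.4% lower). The change with culture differed between the ages for 6 genes (Emx2, Otx1, En1, En2, Six3 and Zic1), against 68.6% of all genes. With most genes called in every comparison, the number called says little of these 9, and the sizes and directions carry the description. Emx1 fell less securely than the others in neonatal culture: the call was lost without replicate 1 (adjusted p = 0.0655) and with scaling by library size alone (0.0516).

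**Figure D3:**
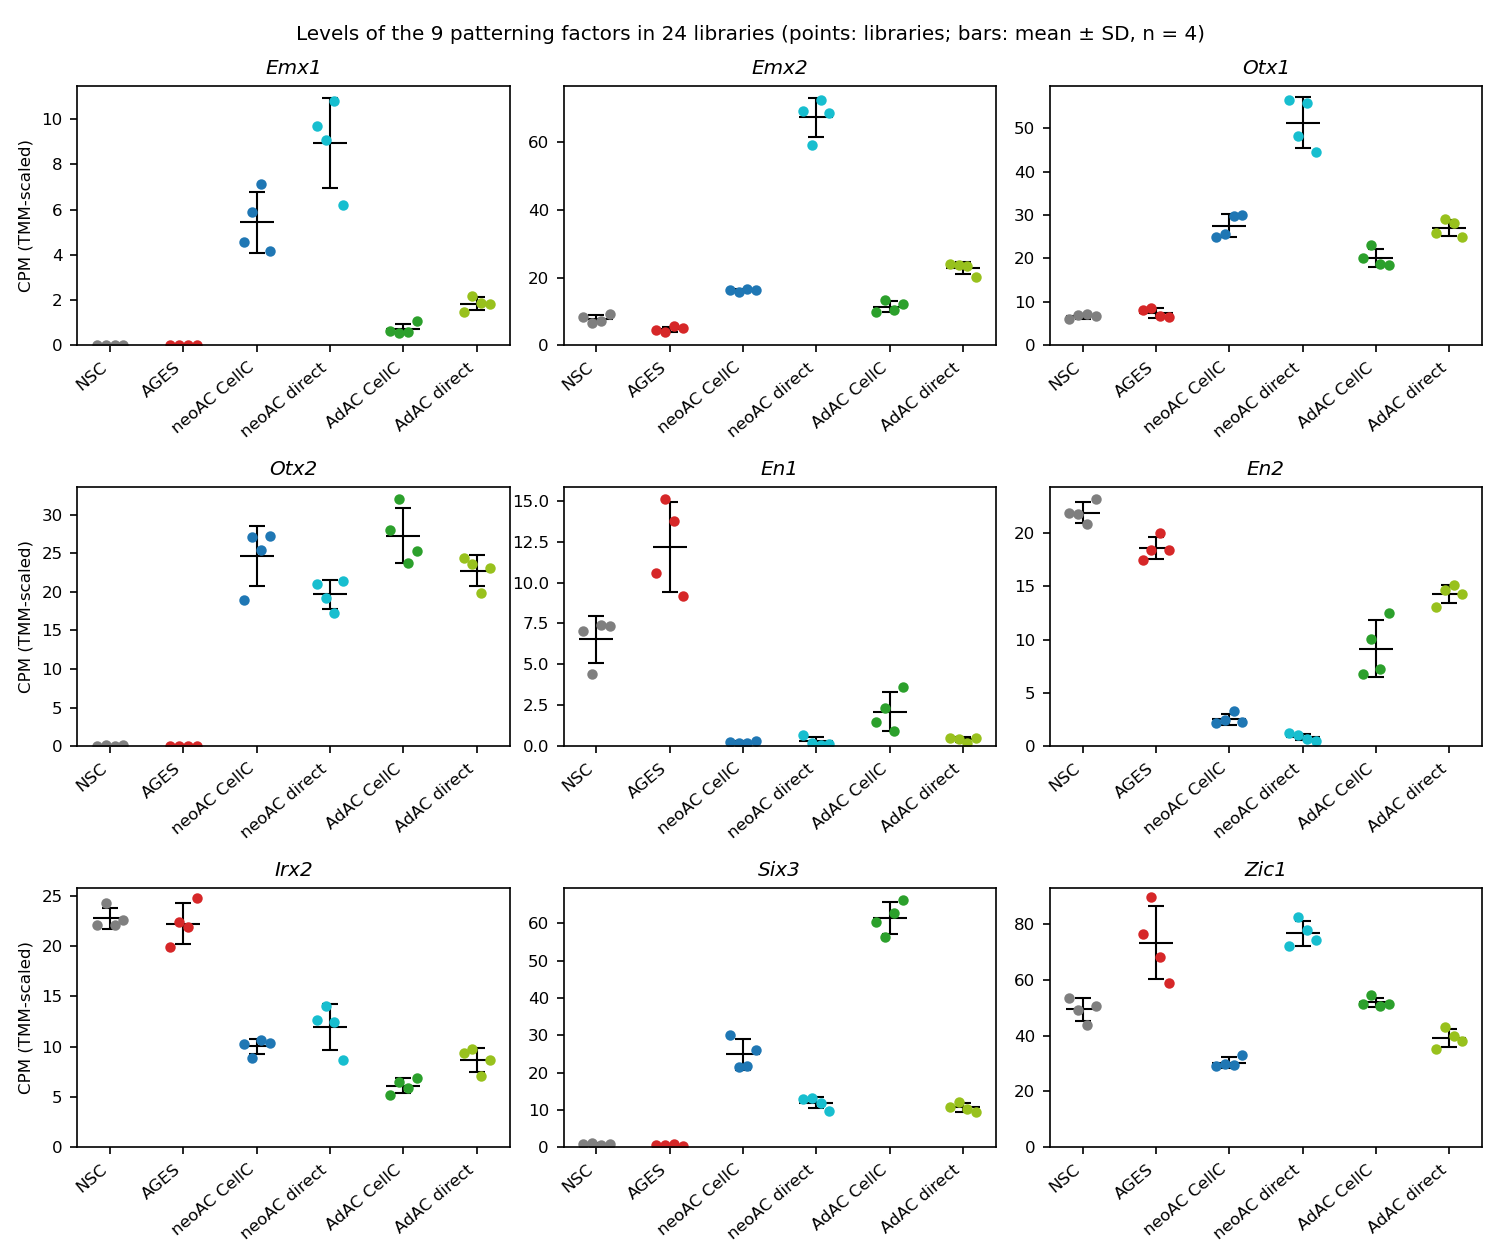
CPM (TMM-scaled, y axis, a scale of its own for each gene) of the 9 genes in the 24 libraries, by group; points are libraries and bars the mean ± SD of 4. Emx1 and Otx2 lie at 0 in NSC and AGES, Emx2 and Otx1 peak in neoAC direct, Six3 peaks in AdAC CellC, and En2 is lowest in neoAC direct.

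**Figure D4:**
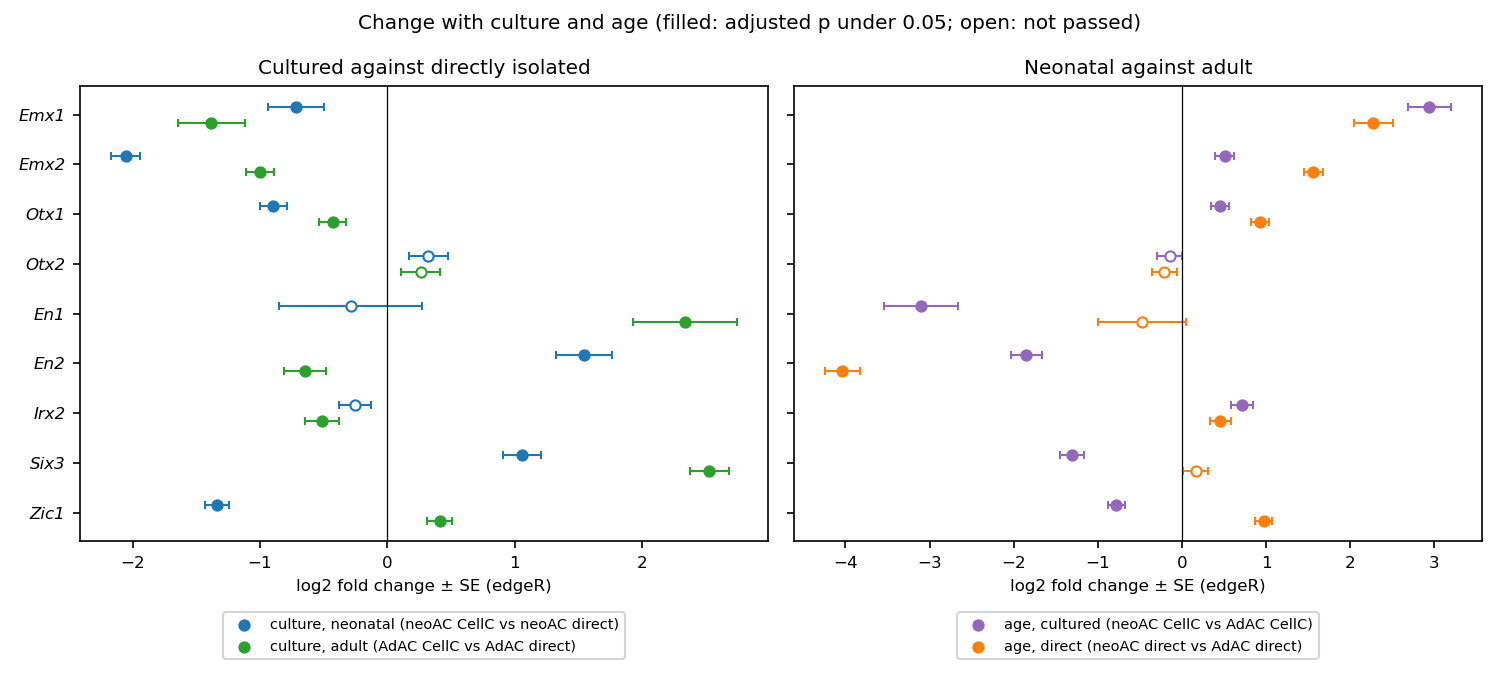
Log2 fold change ± SE from edgeR (x axis) of the 9 genes for culture (left panel, neonatal blue, adult green) and for neonatal against adult (right panel, cultured purple, direct orange), with filled points for adjusted p under 0.05. Emx1, Emx2 and Otx1 lie to the left with culture at both ages and to the right with neonatal age in both conditions, while En2 and Zic1 lie on opposite sides of 0 with culture at the 2 ages.

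Because Emx2, Otx1 and En2 differ in length from their paralogs, levels of paralogs were compared as RPKM, which divides CPM by the exon length in kilobases. Emx2 exceeded Emx1 2.27 ± 0.528-fold in neoAC CellC, 5.72 ± 1.57-fold in neoAC direct, 9.23 ± 1.79-fold in AdAC direct and 12.5 ± 3.84-fold in AdAC CellC. The Emx ratio was thus lower in neonatal than in adult libraries of the same kind, without overlap in culture. Among the primary groups, Otx1 exceeded Otx2 on average in neoAC direct alone (2.05 ± 0.373-fold, lowest library 1.62), while the ratio was 0.931 ± 0.127 for AdAC direct, 0.884 ± 0.121 for neoAC CellC and 0.575 ± 0.0253 for AdAC CellC.

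The En2 to En1 ratio was 1.17 ± 0.245 in AGES and 2.60 ± 0.722 in NSC, and these groups did not overlap (highest AGES library 1.48, lowest NSC library 2.08). In primary cells it ran from 3.01 ± 1.55 in neoAC direct to 29.8 ± 16.4 in AdAC direct, where the libraries spread from 18.2 to 54.0. The primary ratios rest on low counts of En1. No test was run on ratios.

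**Figure D5:**
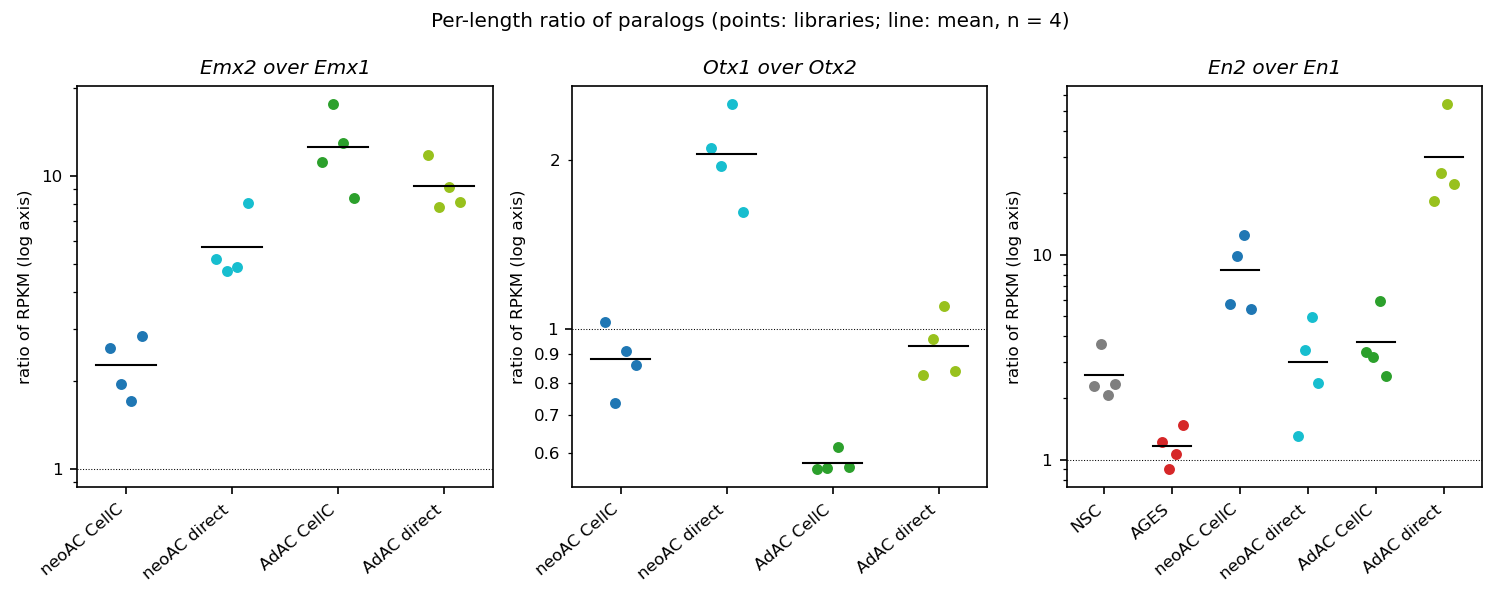
Ratio of RPKM of Emx2 to Emx1, Otx1 to Otx2 and En2 to En1 per library (y axis, log), by group, with the mean of 4 as a line and equality dotted; NSC and AGES are left out for Emx and Otx, where the divisor is at or near 0. Otx1 exceeds Otx2 in all 4 neoAC direct libraries, and the En ratio is lowest in AGES and highest in AdAC direct.

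The dorsal telencephalic list was mostly higher in directly isolated neonatal than adult cells and mostly lower in neonatal culture, while its genes went both ways in adult culture. Of its 11 genes, 10 were higher in neoAC direct than in AdAC direct and none lower (median log2 1.66, against 0 for all genes, of which 35.0% were higher). Lhx2 was at 231 against 107 CPM and Nr2f1 at 306 against 89.6 CPM. In neonatal culture 9 of the 11 were lower and Sp8 higher (median -0.95, against 0.04, with 31.3% of all genes lower), and in adult culture 6 were lower and 4 higher (median -0.57, against 0, with 39.2% of all genes lower and 38.8% higher).

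The midbrain and isthmus list, in turn, was higher in AdAC CellC. Of the 9 of its 12 genes that were tested, 7 were higher in AdAC CellC than in AdAC direct and 1 lower (median log2 2.18, against 0, with 38.8% of all genes higher). Pax2, an early isthmus factor, was at 10.5 against 0.0166 CPM, Lmx1b at 19.8 against 4.73 CPM and Foxa2, a floor plate factor, at 2.85 against 0.0519 CPM. This is the direction of En1, whereas En2 fell from 14.3 CPM in AdAC direct to 9.16 CPM in AdAC CellC. The same 7 genes of the list were lower in neoAC CellC than in AdAC CellC, where 35.2% of all genes were lower. In neoAC CellC against neoAC direct, 2 of the 9 were higher and none lower (median 0.25, against 0.04, with 34.4% of all genes higher).

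Genes whose levels ran most like those of each factor over the 24 libraries were found by Pearson's r of log2 CPM among 17171 genes with at least 1 CPM in a group, and are given as a description, since the libraries of a group share their source. For Emx1 these were Dpp6 (r = 0.991) and Gm17750 (0.989), and for Emx2 Egr1, an immediate early gene (0.972), and Ryr1 (0.972). Otx1 ran with Smim10l2a (0.987) and Smarca1 (0.983), and Otx2 with Ntpcr (0.997) and 3830406C13Rik (0.996). The split between line and primary cells dominates these values: Ntpcr was at most 0.016 CPM on average in the line and at least 10.8 CPM in each primary group. En1 was followed by Gm13212 (0.961) and Kat14 (0.946), En2 by Serinc5 (0.963) and Mafg (0.952), and Irx2 by Rtn2 (0.973) and Brinp2 (0.964). Six3 ran with Col1a1 (0.989), itself on the fibroblast and meningeal list, and Tagln2 (0.989), and Zic1 with Nav1 (0.911) and Zxdc (0.889), the lowest values of the 9.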

How the data were processed

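RNA from 24 mouse samples was measured, 4 biological replicates (separate isolations, or independent cultures from different passages) in each of 6 groups, and every sample was assigned from its title. According to the study's methods and the submitters' processing notes, the authors made stranded libraries of polyadenylated RNA, sequenced pairs of 100 bases, aligned them to GRCm38 with STAR 2.7.3a, keeping up to 20 alignments per read, and counted them on exons of Gencode vM12 genes with featureCounts. The counts were deposited as whole numbers, not normalized. Whether strand or pairs were counted is not stated in the sources used here. All 24 columns matched a sample.

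Identifiers were matched to Gencode vM21, which held 49326 of 49671 (99.3%), with 99.95% of the counts. Counts were filtered with filterByExpr (19691 genes), scaled by TMM and fitted in R 4.3.3 with edgeR 4.0.16 (quasi-likelihood, robust, 1 fit of 6 groups), with two-sided tests of 7 comparisons and of the culture by age interaction, adjusted by Benjamini-Hochberg over 19691 genes at 0.05. SE is the log2 fold change over the square root of F. P-values measure the spread between isolations or cultures. The model was tested on simulated data. Ratios against groups of 1 to 7 counts carry exact 95% counting intervals, and a bound against 0 uses 3 counts over the group. Homeobox stretches came from Gencode vM21 transcripts and start windows from RefSeq on GRCm38.p6.

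The 9 genes and all lists were chosen with earlier results of these data known. Some listed genes are not reported here and are left out of the counts, medians and sums of their lists. Other listed genes were named when they passed and reached 1 CPM in the higher of both groups, or as paralogs or antisense neighbors of the 9, and the 2 most similar genes per factor by Pearson's r. Alternatives were other scalings, other filters, DESeq2 1.42.0, fits of the compared groups alone with and without a replicate block, and leaving out each replicate, and leaving out neoAC direct replicate 2 was added after seeing the data. Reads and isoforms were not analysed here.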

Additional observations from a re-analysis of the deposited data

Results flagged for a closer look

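In groups of 4, a library was marked when its gap to the nearest other was above Dixon's 95% critical value, which chance does in about 1 of 20 groups, and 3 of 53 groups were so marked. Emx1 in NSC was at 0.0318 CPM (1 count) in replicate 3 and at 0 in the other 3. Emx2 in AdAC direct was at 20.3 CPM in replicate 4, against 23.5 to 24.1 CPM in the others. En1 in NSC was at 4.40 CPM in replicate 2, against 7.04 to 7.42 CPM in the others.

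The change with culture differed between neonatal and adult cells for 6 of the 9 genes by the edgeR interaction test (neonatal minus adult, log2). Of all genes tested, 68.6% passed this test. The difference was -1.05 for Emx2 and -0.47 for Otx1, which fell in culture at both ages and further in neonatal cells. It was -1.47 for Six3, which rose at both ages and further in adult cells, and -2.63 for En1, which rose in adult culture and was not called in neonatal culture. It was 2.19 for En2 and -1.75 for Zic1, whose changes had opposite signs at the 2 ages. All 6 adjusted p lay between 2.91e-11 and 0.00764.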

How the results depend on the processing

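Of 50 calls over the 7 comparisons, none was lost with DESeq2 size factors, without a filter or by the DESeq2 Wald test, 1 was lost with scaling by library size, 1 when only the compared groups were fitted, and 1 or 2 without any 1 replicate number. With at least 10 counts in every library, Emx1, Otx2, En1 and Six3 leave the test by construction. The genes lower in AGES then numbered 2 (5 before) against neoAC CellC, 2 (5 before) against AdAC CellC and 1 (2 before) against NSC, those higher in neonatal and adult culture 1 and 1 (2 and 3 before), and those lower in neoAC CellC than AdAC CellC 2 (4 before). In AGES against NSC, leaving out replicates gave 1 to 2 genes higher and 1 to 2 lower, and fitting the 2 groups alone gave 1 lower.

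Replicate numbers did not pair the samples: same-numbered libraries correlated between -0.095 and 0.106, and at most 2 of 4 libraries per comparison correlated best with their own number. With a replicate block, 1 call was lost and 2 were gained, with 1 gene lower in AGES than NSC and 2 genes (1 before) lower in neoAC direct than AdAC direct.

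Signs turned only for differences that were not called. Irx2 in AGES against NSC (log2 -0.03) was 0.0542 with DESeq2 size factors, 0.0468 without a filter, 0.0544 by DESeq2, 0.0763 with at least 10 counts, 0.0617 in the 2 groups alone, 0.0581 with the replicate block, and -0.0931 to 0.00286 without each replicate. En1 in neonatal culture (-0.29) ranged from -0.61 to 0.44, and the interaction for Otx2 (0.06) from -0.0131 to 0.178 without each replicate and up to 0.211 with library-size scaling. The causes were not tested. Otx1 in AGES against NSC passed with at least 10 counts (0.27, edgeR adjusted p = 0.0366). The interaction for Emx1 passed with library-size scaling (0.0348), by DESeq2 (0.0436) and without replicate 4 (0.0278), that for Irx2 with library-size scaling (0.0452), and Irx2 in neonatal culture without replicate 4 (log2 -0.40, edgeR adjusted p = 0.00994). The interaction for Otx1 was lost with library-size scaling (edgeR adjusted p = 0.0688) and without replicate 1 (0.104). Depth limits Emx1 and Otx2 in the line, and En1 in neonatal and directly isolated cells.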

Other observations

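Some ventral and diencephalic forebrain genes also differed between cultured and directly isolated adult cells. In AdAC CellC against AdAC direct, 5 of the 9 ventral telencephalic genes tested were higher and 2 lower (median log2 1.08, against 0 for all genes), and 4 of 9 diencephalic genes were higher and 3 lower (median -0.01), while 38.8% of all genes were higher and 39.2% lower. Nkx2-1, a factor of the ventral forebrain and hypothalamus, was at 30.7 against 3.91 CPM, and Rax, a hypothalamic factor, at 20.8 against 1.67 CPM (edgeR adjusted p = 7.69e-15 and 4.85e-10). Exons of Rax overlap an antisense transcript over 27.4% of their length.

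In neonatal cells the ventral genes that rose with culture were 3 of 9, against 34.4% of all genes, and all 3 were Dlx genes: Dlx1 at 36.5 against 2.89 CPM, Dlx2 at 17.2 against 3.52 CPM and Dlx5 at 3.69 against 0.0386 CPM. Dlx1 and Dlx2 fell in adult culture. Of the paralogs of Six3, Six2, Six4 and Six6 rose in adult culture with Six3, Six6 from 0.319 to 5.21 CPM, while Six5 fell from 47.99 to 9.42 CPM. Neuronal markers summed to 167 to 240 CPM in AdAC CellC, 47.5 to 59.7 in AdAC direct, 72.8 to 78.0 in neoAC CellC and 40.8 to 50.3 in neoAC direct, and their part in these levels was not tested.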
